A study of Mus musculus with 80 samples.

Results

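The libraries described here compare hematopoietic stem cells (HSCs) of old mice that carry little CD150 on their surface with HSCs of young mice. They are 6 of the 80 samples of the series, chosen by their labels: the 3 libraries of G1 (mouse 1, 2 and 3), the fraction of old HSCs with the lowest CD150 among the 4 equal fractions G1 to G4, and the 3 libraries of fresh young HSCs. Young mice were 2–3 months and old mice 22–24 months of age, all of them male C57BL/6 mice for which no treatment is given. HSCs of either age were sorted from bone marrow by the absence of lineage markers, CD48 and CD34 and the presence of Sca-1, c-Kit and CD150, and G1 to G4 were drawn from the old HSCs of the same 3 mice by their CD150 level. Young HSCs were not divided by CD150, and G1 and young HSCs were collected in separate experiments, so age, CD150 level and experiment cannot be told apart in this comparison. The 3 unsorted old libraries, also whole HSCs, and the CD150-highest fraction G4 are used beside them. Bulk values cannot separate fewer cells of a type from less RNA per cell, and the p-values measure the spread among 3 libraries per group.

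HSCs sit at the top of the blood lineage tree and can self-renew or give rise to all blood cells. With age, mouse HSCs grow in number, lose output of lymphoid cells and shift toward myeloid cells and platelets, and they raise a recurrent set of genes for adhesion, stress response and metabolism. CD150, encoded by Slamf1, is a receptor of the SLAM family used to sort HSCs, and HSCs with much of it are known for their myeloid and platelet bias.

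Values are FPKM (fragments scaled by transcript length and by library total) and differences are on the log2(FPKM + 1) scale, where the added 1 makes the change of low genes look smaller than it is. Of 21825 gene symbols, 11408 reached a mean of 1 FPKM in at least 1 of the 2 groups and were tested. Bbs1 stood just inside this limit with a mean of 1.00 FPKM and Klhl35 just outside with 0.999. A gene is called where limma gives a Benjamini-Hochberg adjusted p under 0.05 and the fold is above 2 or below 0.5.

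The library of G1 mouse 3 stood apart from the rest. It correlated with the other G1 libraries at r = 0.962 and 0.964 over all 21825 gene symbols, while G1 mice 1 and 2 correlated at 0.990. In G1 mouse 3, 25.4% of the tested genes differed by more than 2-fold from the mean of the other G1 libraries, against 7.65% and 6.42% in G1 mice 1 and 2 and 1.68% to 2.73% in each young and each unsorted old library, and its FPKM summed to 698603 against 567732 and 578599. Of the other fractions, G2 mouse 2 stood apart in the same way, with 14.8% of genes and r of 0.973 and 0.976 to the other G2 libraries, and it enters the mean of the fractions used further on. Young replicate 3 stood apart in immediate early genes such as Fos, at 1137 FPKM against 4.35 and 10.4. The tables give no read totals and have 0 for all 13 mitochondrial genes, whereas 12 of 12 housekeeping genes were above 0 in each library.

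With all 6 libraries, 58 genes were higher in G1 than in young HSCs (0.508% of those tested) and 10 were lower (0.0877%). Without G1 mouse 3, 562 genes were higher (4.93%) and 110 lower (0.965%), and all 68 genes called with it stayed called. The median difference over all genes was 0.08 with and 0.155 without that library. For each of the 68 genes the lowest library of the higher group exceeded the highest of the lower one, which held for 16.3% of tested genes upward and 7.63% downward. Leaving out a G1 mouse 1 or 2 or a young library instead left 10 to 24 higher and 1 to 5 lower genes, and 11 of the 68 genes were called in all 6 such fits: Arhgef28, Cavin2, Clca3a1, Clec1a, Ebi3, Gpr183, Mt2, Nupr1, Plscr2, Prtn3 and Selp.

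**Figure D1:**
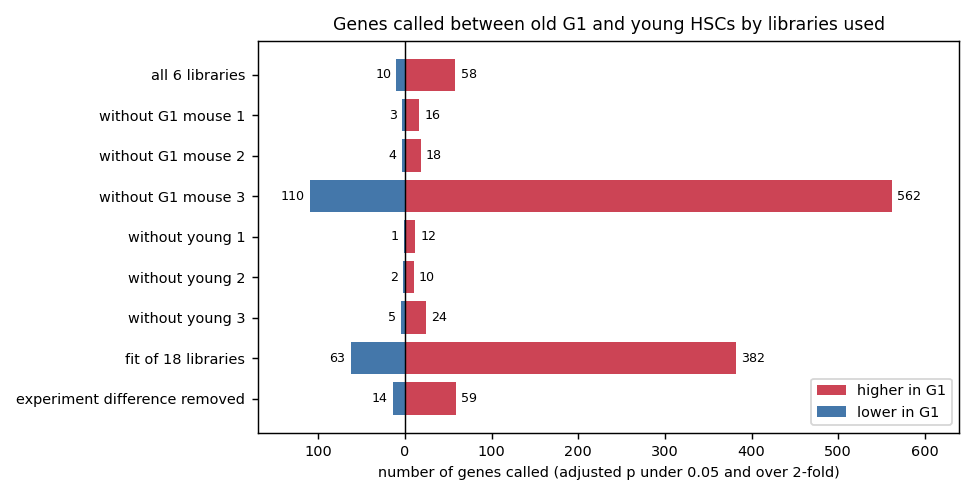
Number of genes called higher or lower in G1 than in young HSCs (bars, limma, adjusted p under 0.05 and over 2-fold) for all 6 libraries, with each library left out, in a fit of all 18 fresh libraries and with the experiments set against each other. The counts reached 562 and 110 without G1 mouse 3, while leaving out any other library gave fewer calls than the 58 and 10 of all libraries.

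The experiments themselves were set against each other through the old HSCs. No label gives a batch, so that unsorted old and young HSCs shared an experiment is an assumption. The mean of G1 to G4 was higher than unsorted old HSCs in 230 genes (2.02%) and lower in 14 (0.123%), although together the fractions make up the unsorted population. With mice 1 and 2 alone the counts were 139 (1.22%) and 7 (0.0615%), and with mice 1 and 3 alone they were 103 (0.906%) and 3 (0.0264%). A fit of all 18 fresh libraries, which pools the spread over every group, gave 382 genes higher (3.35%) and 63 lower (0.552%) in G1 than in young HSCs. A contrast in the same fit of 18 libraries adds the difference between G1 and the mean of the 4 fractions to that between unsorted old and young HSCs. Under the assumption above, each difference stays inside an experiment. This contrast gave 59 higher (0.517%) and 14 lower genes (0.123%), against the 382 and 63 of that fit. Because it combines more groups, its standard error is larger than that of G1 against young HSCs in that fit. How far this lowered the counts was not tested. The contrast gave 66 higher (0.579%) and 22 lower genes (0.193%) without G2 mouse 2, and 76 (0.667%) and 28 (0.246%) without G1 mouse 3. Of the 68 genes called, 36 of the 58 higher and 3 of the 10 lower were also called in that contrast with all libraries.

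Metallothioneins, small proteins that bind zinc and copper, rose in G1. Their genes Mt1 and Mt2 lie side by side on chromosome 8 of GRCm38.p6 (the mm10 assembly). Mt2 is at 94172618 to 94173567 and Mt1 at 94178883 to 94180327, and the RefSeq promoter windows, on the plus strand, cover chr8:94178839-94179138 for Mt1 and chr8:94172368-94172667 for Mt2, with 250 bases before and 50 after the start site used in that table. This site is 94172618 for Mt2 and 94179089 for Mt1, where the gene's span begins upstream of it. They are shown because the gene with the largest rise and its neighbour share a letter pattern. Capitals mark TGCNCNC, read on either strand (GNGNGCA on the reverse). This pattern is looser than the core of the metal response element, which has only A or G after TGC.
Mt1: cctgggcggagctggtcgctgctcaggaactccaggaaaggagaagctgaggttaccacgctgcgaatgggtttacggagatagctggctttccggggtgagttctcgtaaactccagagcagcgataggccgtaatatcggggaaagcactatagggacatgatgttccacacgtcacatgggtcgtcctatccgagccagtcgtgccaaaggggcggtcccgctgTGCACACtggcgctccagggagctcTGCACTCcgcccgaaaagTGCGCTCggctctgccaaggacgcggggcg
Mt2: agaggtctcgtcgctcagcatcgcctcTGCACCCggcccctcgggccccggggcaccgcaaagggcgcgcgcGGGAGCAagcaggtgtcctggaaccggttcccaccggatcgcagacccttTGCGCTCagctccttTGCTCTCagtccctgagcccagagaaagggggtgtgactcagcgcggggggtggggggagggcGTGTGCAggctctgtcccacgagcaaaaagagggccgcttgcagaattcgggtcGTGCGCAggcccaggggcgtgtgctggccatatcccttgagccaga
The Mt1 window holds 3 matches to the looser pattern and the Mt2 window 6. Of the Mt2 matches, GGGAGCA and TGCTCTC have T after TGC on the strand that matches, so they are not that core. The shares that follow are also of the looser pattern. Of 32851 promoter windows of 300 bases, 51.0% hold at least 1 match, 7.1% at least 3 and 0.225% at least 6. A match is a description of these letters and not a binding site.

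Mt2 was at 0.209, 0.572 and 2.42 FPKM in young HSCs and at 59.5, 49.6 and 146 FPKM in G1. The lowest G1 library lay far above the highest young one, and the difference of 5.36 ± 0.50 (SE) was the largest rise of any tested gene (limma, adjusted p = 0.00403). The difference was 4.89 without G1 mouse 3. Mt1 was at 56.8, 61.5 and 99.5 FPKM in young HSCs against 347, 369 and 803 FPKM in G1, a rise of 2.72 ± 0.34 (adjusted p = 0.0147), or of 2.33 without G1 mouse 3, whose level was the highest. Nupr1, a stress-induced nuclear protein, was at 53.4, 94.6 and 102 FPKM in young HSCs against 631, 617 and 1238 FPKM in G1, again without overlap (3.27 ± 0.33, adjusted p = 0.00516). Unsorted old HSCs held means of 96.2 FPKM of Mt2, 446 of Mt1 and 909 of Nupr1, and the tests of G1 against them gave adjusted p of 0.813, 0.957 and 0.89. In G1 mice 1 and 2 alone, Mt2 was lower in G1 than in unsorted old HSCs by 0.80 on the log2 scale (limma, adjusted p = 0.0193). It was lower than in G4 by 1.70 (limma, adjusted p = 0.00413), in a fit that kept all 3 G4 libraries and did not pair the mice. Of the 17 tested genes of metal and stress response, these 3 rose and none fell, beside 0.508% and 0.0877% of all genes, with a list median of 0.35. With G1 mouse 3 left out, 5 rose and 1 fell, beside 4.93% and 0.965% of all genes, with a list median of 0.62.

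Receptors and adhesion proteins came next. Gpr183, an oxysterol receptor that guides migration of immune cells, was at 0.656, 0.145 and 1.12 FPKM in young HSCs and at 32.8, 34.1 and 47.1 FPKM in G1 (4.60 ± 0.32, adjusted p = 0.00276). It was all but silent in each young library and clearly present in each G1 library. Selp, the adhesion receptor P-selectin of platelets and endothelium, was at 1.84, 1.83 and 3.09 FPKM against 50.1, 45.7 and 24.0 FPKM (3.61 ± 0.34, adjusted p = 0.00403). Here G1 mouse 3 was the lowest of its group and still several-fold above the young libraries, and the difference without it was 3.93. Clec1a, a C-type lectin receptor, was at 8.38, 7.76 and 10.4 FPKM against 66.2, 57.0 and 94.0 FPKM (2.87 ± 0.25, adjusted p = 0.00403), above the 40.5 ± 5.08 FPKM (SD, n = 3) of unsorted old HSCs in every mouse. Of 22 tested signaling receptors 5 rose, among them Bmpr1a, a receptor of bone morphogenetic proteins (2.42), Cysltr2, a leukotriene receptor (1.97), and Osmr, the oncostatin M receptor (1.86), and none fell, beside 0.508% and 0.0877% of all genes. Leaving out G1 mouse 3, 11 rose, beside 4.93% of all genes. Without young replicate 3, 2 rose, beside 0.21%. Of 23 tested adhesion and junction genes 3 rose, Selp, Tm4sf1 (2.89) and the tight junction protein Cldn5 (2.77), and none fell, again beside 0.508% and 0.0877%. The count was 7 of 22 without G1 mouse 3, beside 4.93% of all genes.

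Several membrane and lipid genes had nearly the same level in the G1 mice. Plscr2, of the phospholipid scramblase family, was at 86.5, 86.1 and 84.0 FPKM in G1 against 5.63, 3.76 and 9.56 FPKM in young HSCs (3.64 ± 0.30, adjusted p = 0.00403). Clca3a1, of a family of chloride channel regulators, was at 45.9, 40.0 and 44.3 FPKM against 4.09, 1.02 and 3.72 FPKM (log2 difference 3.6 ± 0.37, adjusted p = 0.0052). Cavin2, a coat protein of caveolae, was at 86.9, 66.0 and 81.5 FPKM against 14, 18.9 and 17.4 FPKM (2.15 ± 0.21, adjusted p = 0.00432). For these genes the G1 mean lay close to that of unsorted old HSCs, at 85.5 against 104 FPKM for Plscr2, 43.4 against 39.9 for Clca3a1 and 78.1 against 75.2 for Cavin2. Arhgef28, an exchange factor for small GTPases, was at 15.6, 18.4 and 23.6 FPKM in G1 against 1.05, 1.66 and 1.06 FPKM in young HSCs (3.15 ± 0.29, adjusted p = 0.00403). Unsorted old HSCs held 7.83 ± 3.19 FPKM (SD, n = 3) of it, less than each G1 library, and the mean of the 4 fractions also exceeded unsorted old HSCs (1.06, adjusted p = 0.0363).

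A proteinase and a cell cycle inhibitor rose in G1 to a level near that of unsorted old HSCs. Prtn3, the granule enzyme proteinase 3, was at 187, 192 and 182 FPKM in young HSCs against 546, 610 and 655 FPKM in G1 (1.68 ± 0.15, adjusted p = 0.00403), and both old groups had a mean of 604 FPKM. Cdkn2c, an inhibitor of the kinases CDK4 and CDK6, was at 6.78, 7.95 and 8.53 FPKM against 27.6, 32.3 and 28.3 FPKM (1.80 ± 0.23, adjusted p = 0.0145), with 26.8 FPKM in unsorted old HSCs. The difference between G1 and unsorted old HSCs in Cdkn2c was 0.13 with an adjusted p of 0.864. Of 19 tested cell cycle inhibitors and cyclins, Cdkn2c was the 1 that was called, beside 0.508% of all genes higher. With G1 mouse 3 left out, 2 rose and 1 fell, beside 4.93% and 0.965% of all genes. Without young replicate 3 none was called.

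**Figure D2:**
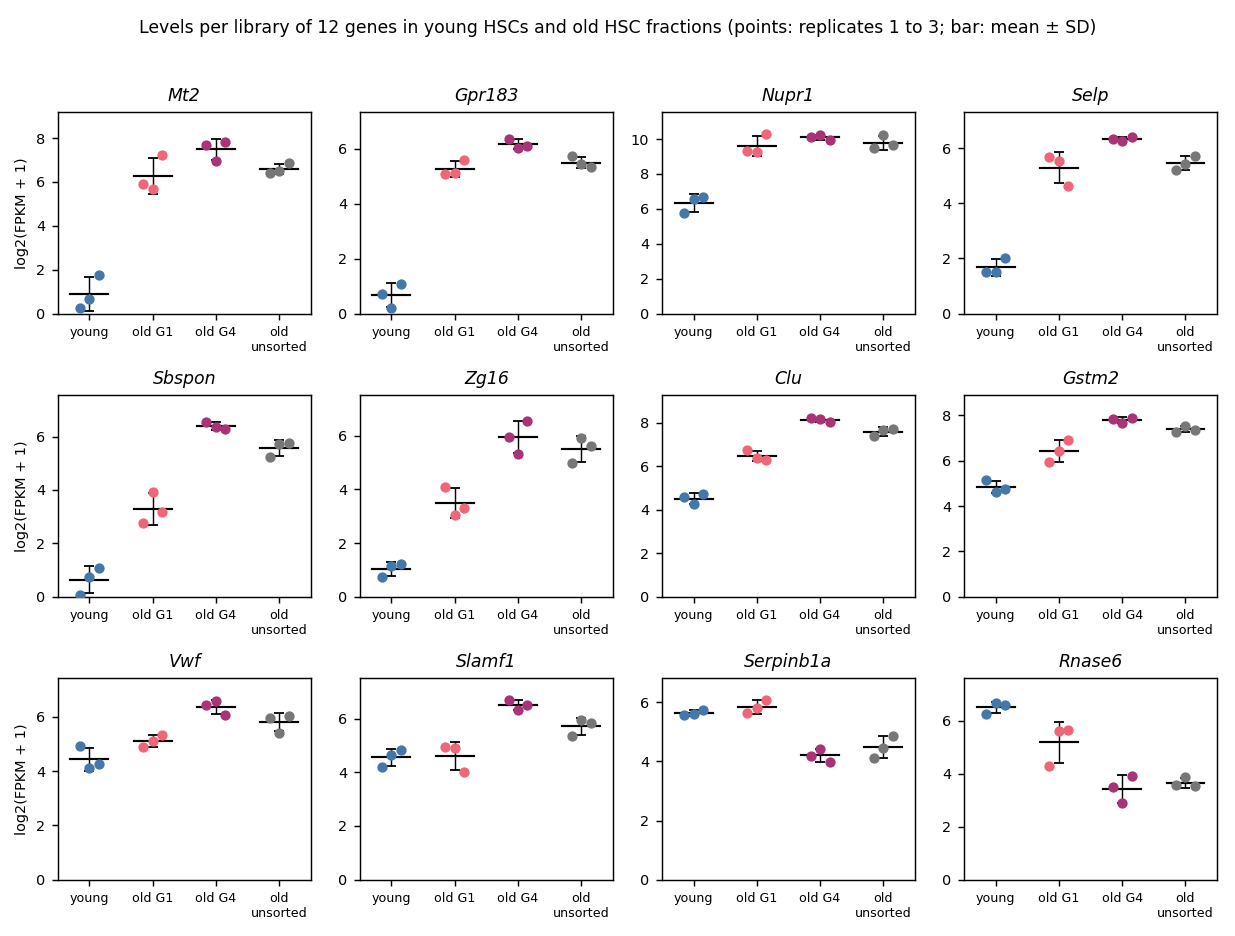
Level of 12 genes as log2(FPKM + 1) in each library (points, with a bar for the mean ± SD of 3) of young HSCs, G1, G4 and unsorted old HSCs. Mt2 and Gpr183 were near 0 in young HSCs and at 49.6 FPKM or more and 32.8 FPKM or more in G1, while Vwf in G1 lay below every G4 library. Slamf1 in G1 did so too, which is no finding because the fractions were drawn on its protein.

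The aging genes Sbspon, Zg16, Clu, Gstm2 and Klrb1c rose in G1 to means below those of unsorted old HSCs. None of them was called lower than in unsorted old HSCs with all libraries. Without G1 mouse 3 each was called lower in G1 than in G4, in a fit that did not pair the mice. Sbspon, a secreted protein of the extracellular matrix, was at 0.0496, 0.676 and 1.11 FPKM in young HSCs and at 5.77, 14.1 and 7.92 FPKM in G1 (2.65 ± 0.41, adjusted p = 0.0297). Unsorted old HSCs held 36.8, 52.0 and 53.7 FPKM, so that G1 lay between the young and the old libraries without overlap with either. From G1 to G4 the means were 9.28, 27.7, 58.4 and 83.3 FPKM. G1 was lower than unsorted old HSCs by 2.30 on the log2 scale with an adjusted p of 0.089, and by 2.24 without G1 mouse 3 (limma, adjusted p = 0.00324). Zg16, a lectin of secretory granules, was at 16.2, 7.33 and 8.95 FPKM in G1 against 0.653, 1.18 and 1.32 FPKM in young HSCs (2.47 ± 0.35, adjusted p = 0.022). Its level in unsorted old HSCs was 46.3 ± 14.8 FPKM (SD, n = 3), above all G1 libraries, with a difference of −2.02 (adjusted p = 0.159), or −1.93 without G1 mouse 3 (adjusted p = 0.00984).

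Clu, a secreted chaperone, was at 22.6, 17.9 and 25.5 FPKM in young HSCs against 106, 80.6 and 77.2 FPKM in G1 (1.95 ± 0.22, adjusted p = 0.00874). Its level in unsorted old HSCs was 164, 204 and 210 FPKM, and the means from G1 to G4 were 88.0, 133, 211 and 278 FPKM. G1 differed from unsorted old HSCs by −1.13 (adjusted p = 0.159), and by −1.04 without G1 mouse 3 (adjusted p = 0.00547). Gstm2, a glutathione transferase, was at 60.6, 86.3 and 121 FPKM in G1 against 34.1, 23.7 and 25.9 FPKM in young HSCs (1.60 ± 0.28, adjusted p = 0.0482), and Klrb1c, the receptor NK1.1, at 21.4, 18.6 and 37.5 against 5.32, 5.14 and 4.82 FPKM (2.07 ± 0.30, adjusted p = 0.025). Unsorted old HSCs were at 166 ± 15.6 and 44.9 ± 10.8 FPKM (SD, n = 3) for these genes. Neither was lower in G1 than in unsorted old HSCs at an adjusted p under 0.05 with all libraries, and both were without G1 mouse 3 (limma). Of 18 tested complement, secretory and matrix genes 5 rose (Clu, Sbspon, Zg16, Matn4 and Ntf3) and none fell, beside 0.508% and 0.0877% of all genes. All 5 also belong to the public aging list described further on. Among the 18 genes 10 rose and 1 fell without G1 mouse 3, beside 4.93% and 0.965% of all genes. Without young replicate 3, 1 rose, beside 0.21%. Of 18 detoxifying enzymes Gstm2 and Sult1a1 rose, beside 0.508% of all genes. The count was 5 without G1 mouse 3, beside 4.93%, and 0 without young replicate 3, beside 0.21%.

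Other aging genes were not called in G1. Ramp2, a partner protein of the adrenomedullin receptor, was at 24.1, 13.7 and 11.2 FPKM in young HSCs, 25.7, 40.0 and 32.3 FPKM in G1 and 108, 131 and 131 FPKM in unsorted old HSCs. G1 lay just above the young libraries (1.00 ± 0.31, adjusted p = 0.189), and the gene was called higher than in young HSCs without G1 mouse 3 (adjusted p = 0.0454). Ramp2 was the 1 gene called lower in G1 than in unsorted old HSCs with all libraries (−1.91 ± 0.21, adjusted p = 0.0369). That call was 1 of 11399 genes (0.00877%), beside 6 higher ones (0.0526%), and without G1 mouse 3 the counts were 38 lower (0.333%) and 230 higher (2.02%). No gene was called lower when any unsorted old library, G1 mouse 1 or G1 mouse 2 was left out, nor with a replicate block, without the mean-variance trend or without the filter on low values. Vwf, von Willebrand factor of platelets and endothelium, was at 29.5, 16.5 and 18.1 FPKM in young HSCs against 28.6, 33.8 and 39.1 FPKM in G1, ranges that overlap. The difference was 0.67 with a 95% confidence interval of 0.06 to 1.28 (adjusted p = 0.275), against 55.5 ± 12.2 FPKM (SD, n = 3) in unsorted old HSCs and 82.0 ± 14.5 in G4.

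Slamf1, which encodes the protein used to draw the fractions, was at 17.5, 24.1 and 27.2 FPKM in young HSCs and at 29.4, 29.2 and 15.2 FPKM in G1. The ranges overlap, and the difference was 0.06 with a 95% confidence interval of −0.64 to 0.76 (adjusted p = 0.949). Means from G1 to G4 were 24.6, 48.2, 65.8 and 90.2 FPKM, which is no finding because the fractions were drawn on the protein of this gene, and unsorted old HSCs held 52.2 ± 10.7 FPKM (SD, n = 3). Itgb3, an integrin chain, and Alcam, a cell adhesion molecule, differed from young HSCs by 1.08 (adjusted p = 0.193) and 1.27 (adjusted p = 0.0948), and Alcam was called without G1 mouse 3.

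Of the 58 genes called higher in G1, 32 belong to a public list of 100 genes higher in old HSCs, which the study took from a public dataset. Among these 32 are Mt1, Mt2, Nupr1, Gpr183, Bmpr1a, Cysltr2, Osmr, Selp and Tm4sf1. Gstm2, Sult1a1 and the secretory genes Clu, Sbspon, Zg16, Matn4 and Ntf3 are among them too. The functional lists above were chosen with earlier results of these data known, so their counts are not independent of this one. Of the public list, 99 symbols were in the tables, 90 were tested and 9 were under the limit of 1 FPKM. In G1, 32 of the 90 rose over young HSCs, beside 0.508% of all genes, and none fell, with a list median of 1.53. Without young replicate 3, 12 rose, beside 0.21%. In the fit of 18 libraries 63 of the 90 rose, beside 3.35%. With the experiments set against each other in that fit 37 rose, beside 0.517%, with a list median of 1.30. The FPKM of 80 of the 90 were higher in G1 than in young HSCs without overlap, beside 16.3% of all genes. In unsorted old HSCs, 75 of 88 tested members were called higher than in the same young libraries, beside 1.92% of all genes, with a median of 1.62, and in G4 85 of 92 were higher, beside 6.31% of all genes, and none was lower, beside 2.63%, with a median of 2.00. Since these comparisons share the young libraries, their counts are given side by side only.

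Each member was then classed by 3 tests. A change was present where G1 was called higher than young HSCs, partial where it was present and G1 was also lower than unsorted old HSCs at an adjusted p under 0.05, and not detected where unsorted old HSCs were called and G1 was not. With all libraries 32 members were present, 0 partial, 44 not detected and 14 in no class. Not detected does not mean unchanged. All 90 members differed upward from young HSCs, beside 6470 of 11408 genes, and 83 had an unadjusted p under 0.05 in limma, beside 1780. Over all genes, 217 were called higher in unsorted old than in young HSCs, and 43 of the 58 genes called higher in G1 were among them. Without G1 mouse 3, 91 members were tested and 71 were present, beside 4.93% of all genes called higher. Of these 71, 10 were partial, and 10 other members were not detected. Among the partial members were Gstm2, Zg16, Sbspon, Mt2, Cd38, Clu, Ramp2, Klrb1c and Jam2. Among those not detected were Itgb3, Vwf, Tmem47, Fap, Cpne8, Efna1, Ghr, Nrg4 and Casp12, and of these Vwf, Cpne8 and Nrg4 were lower in G1 than in unsorted old HSCs at an adjusted p under 0.05. Across all genes, 2.78% were lower in G1 than in unsorted old HSCs by that rule without G1 mouse 3.

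The list was also read within the fractions of the same mice. In 52 of the 90 members G1 was lower than G4 in all 3 mice (57.8%), beside 14% of all genes, and in 41 the ranges of the groups did not overlap, beside 6.78%. The median level of the list, as a log2 difference from the young mean, was 1.59, 1.58 and 1.55 in G1, 2.02, 2.07 and 2.11 in G4 and 1.68, 1.56 and 1.70 in unsorted old HSCs. It was 1.93, 1.82 and 1.83 in G2 and 2.09, 2.05 and 2.01 in G3. G1 mouse 3 did not stand apart in this median. The mean of the fractions lay above unsorted old HSCs in 70 of 92 tested members (list median 0.25), beside 7343 of 11390 genes (median 0.14). With the mice as a block, however, limma called no gene lower in G1 than in G4 among 11466 tested and 1 higher (0.00872%), while 744 had an unadjusted p under 0.05. A fit without the block gave 2 lower (0.0174%) and 1 higher (0.00872%). Without G1 mouse 3, 40 were lower (0.349%) and 12 higher (0.105%). That last fit had no block and kept the G4 libraries of all 3 mice, so it ignores the pairing.

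**Figure D3:**
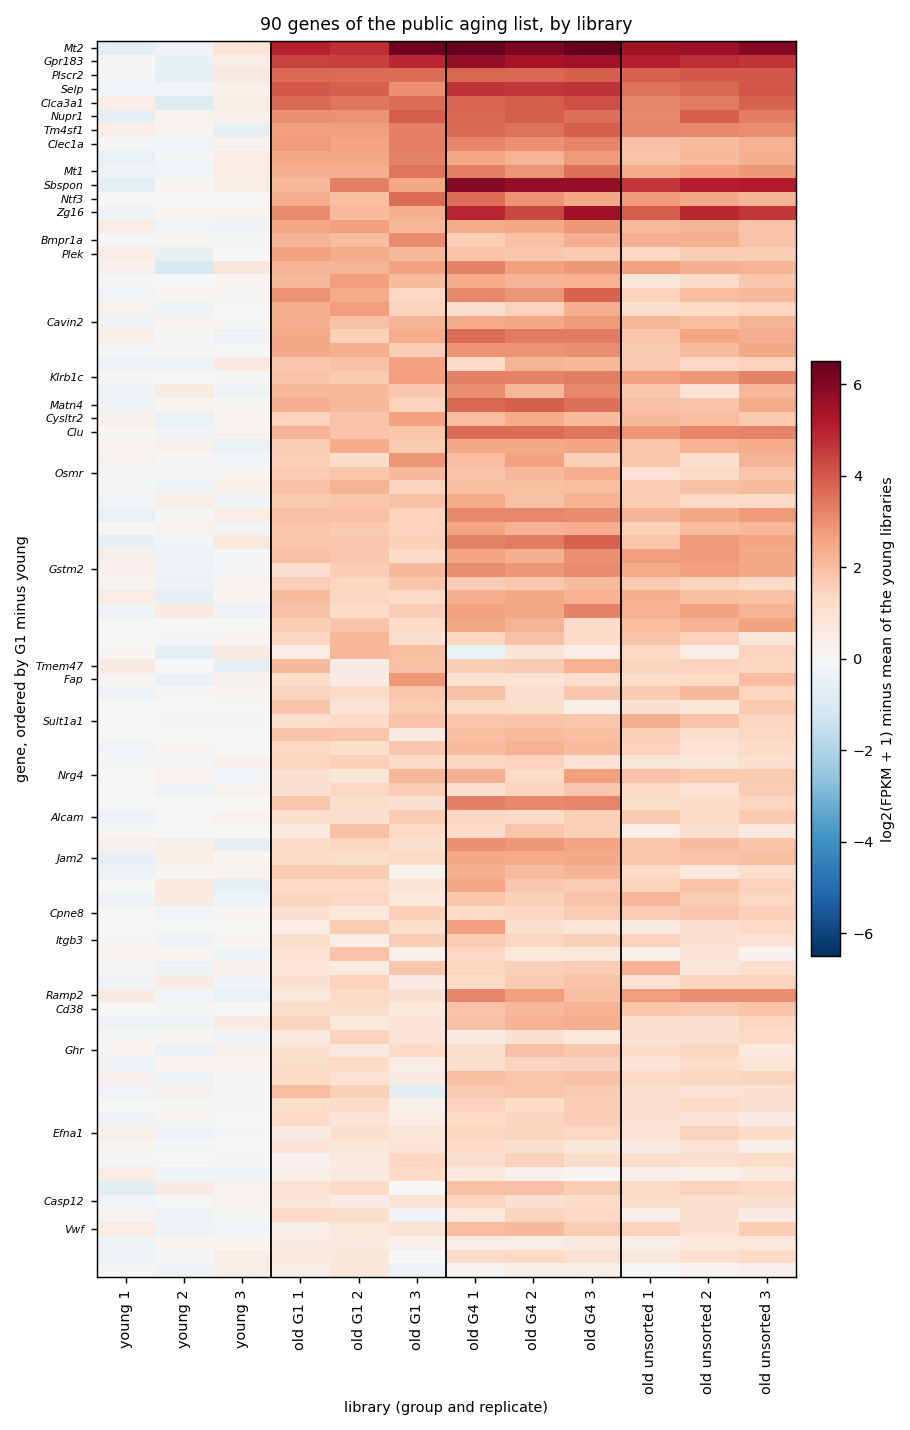
Log2(FPKM + 1) minus the young mean for the 90 tested genes of the public aging list (rows) in each library (columns), with red above and blue below the young mean and labels on genes that the text names. Most genes are red in every old library, and Mt2 and Gpr183 are among those with the strongest color in G1.

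Genes that were lower in G1 were fewer. Socs2, a suppressor of cytokine and growth hormone signaling, was at 56.2, 65.0 and 57.3 FPKM in young HSCs and at 8.06, 5.95 and 2.92 FPKM in G1 (−3.27 ± 0.32, adjusted p = 0.00432). The unsorted old libraries were spread between 10.6 and 46.5 FPKM. Ebi3, a subunit of the cytokines IL-27 and IL-35, was at 128.5, 134.9 and 121.6 FPKM in young HSCs and at 31.6, 36.4 and 35.1 FPKM in G1 (−1.87 ± 0.17, adjusted p = 0.00403), close to the 34.8 ± 12.2 FPKM (SD, n = 3) of unsorted old HSCs. Igf1, insulin-like growth factor 1, was at 11.3, 9.80 and 6.42 FPKM against 1.31, 0.793 and 0.000919 FPKM (−2.63, adjusted p = 0.0252). Its mean was under 1 FPKM in each of the 4 fractions and 3.29 FPKM in unsorted old HSCs, which the mean of the fractions undercut (−1.40, adjusted p = 0.0164). F2rl2, a protease-activated receptor, was at 4.17, 4.60 and 3.98 FPKM in young HSCs and below 1e-06 FPKM in each G1 library, a difference of −2.39 (adjusted p = 0.00874) whose size the added 1 sets.

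Lgals1, the lectin galectin-1, was at 63.6, 62.9 and 53.9 FPKM in young HSCs against 14.3, 11 and 27.2 FPKM in G1 (−1.82 ± 0.31, adjusted p = 0.0482), and Plac8, which is high in lymphoid and myeloid progenitors, fell from a mean of 70.4 to 7.78 FPKM (−2.98, adjusted p = 0.0155). Ltb, the lymphoid cytokine lymphotoxin beta, was at 202, 198 and 228 FPKM in young HSCs against 100.5, 103.5 and 105.9 FPKM in G1 (−1.01 ± 0.16, adjusted p = 0.0299), below the unsorted old mean of 155 FPKM in all 3 mice. It was the 1 lymphoid gene called among 19 tested, beside 0.0877% of all genes lower, with a list median of −0.14. The count was 2 of 18 without G1 mouse 3, beside 0.965%, and 0 without young replicate 3, beside 0.0437%. Rgcc, a regulator of the cell cycle (−1.43), Arxes2 (−2.11) and C1qb (−2.35) make up the 10. C1qb encodes a chain of complement C1q made by macrophages, and it was at 5.25, 6.08 and 4.86 FPKM in young HSCs against 0.431, 0.357 and 0 FPKM in G1. The macrophage markers summed to 35.3 to 38.1 FPKM in young HSCs, 25.7 to 30.1 in G1 and 15.8 to 21.3 in unsorted old HSCs, with 2 of 18 at 0 in all G1 libraries, C1qa among them. The part of these cells in the fall of C1qb was not tested.

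Genes that fall with age were examined next. Of the genes the study lists as lower in old HSCs, a list drawn from the young and unsorted old libraries and so no independent evidence, 227 were tested in G1. A list drawn in this way favors a larger fall in unsorted old HSCs than in any other old group. Of these 6 fell (2.64%, beside 0.0877% of all genes) with a median of −0.65, against 142 of 225 (63.1%, beside 1.73%) with a median of −1.21 in unsorted old HSCs. Without G1 mouse 3, 45 of 228 fell and 1 rose, beside 0.965% and 4.93% of all genes. Without young replicate 3, 2 fell, beside 0.0437%. In the fit of 18 libraries 34 fell (15.0%, beside 0.552%) and 1 rose (0.441%, beside 3.35%). With the experiments set against each other in that fit 10 fell (4.41%, beside 0.123%). The median was then −0.99, nearer to that of unsorted old HSCs. That contrast contains the difference between unsorted old and young HSCs by which the list was drawn, so this move of the median was partly built in. The counterpart list of genes higher in old HSCs, drawn in the same way, had 43 of 255 called higher in G1 (16.9%, beside 0.508% of all genes) with a median of 1.17 and none lower. The count was 161 of 253 (63.6%, beside 4.93%) without G1 mouse 3, and without young replicate 3 it was 17 (6.67%, beside 0.21%). As a median log2 difference from the young mean, the falling genes were at −0.37, −0.77 and −0.59 in G1 and at −1.08, −1.34 and −1.18 in unsorted old HSCs, without overlap between the groups. This gap was not particular to G1. G2 was at −0.76, −0.91 and −0.71 and G3 at −0.68, −1.04 and −0.75, also above every unsorted old library. G4, at −1.18, −1.25 and −1.03, overlapped the unsorted old libraries.

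Some of these genes lay nearer to their young level in G1. Serpinb1a, an inhibitor of neutrophil serine proteases, was at 46.1, 47.3 and 52.7 FPKM in young HSCs, 49.0, 54.9 and 67.5 FPKM in G1 and 16.5, 21 and 28.4 FPKM in unsorted old HSCs. The G1 and young libraries overlap and both lie above the old ones, and the difference of G1 from young HSCs was 0.22 with a 95% confidence interval of −0.22 to 0.66 (adjusted p = 0.642). Its means in G2, G3 and G4 were 39.0, 23.4 and 17.6 FPKM, and without G1 mouse 3 it was called higher in G1 than in unsorted old HSCs (1.23, adjusted p = 0.0112). Rnase6, a secreted ribonuclease with antimicrobial activity, was at 75.5, 101 and 95.1 FPKM in young HSCs, 18.7, 47.5 and 49.0 FPKM in G1 and 10.8, 13.5 and 10.6 FPKM in unsorted old HSCs, so that G1 took a middle place. It was not called against young HSCs with all libraries (−1.32, adjusted p = 0.137) and was called without G1 mouse 3 (−1.55, adjusted p = 0.00887).

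No gene of the S phase and G2/M lists was called in G1 with all libraries. Of 42 tested S phase genes limma called 0 with a median of −0.47, and of 54 G2/M genes 0 with a median of −0.32. Of these, 16 and 10 had an unadjusted p under 0.05 in limma, beside 1780 of all 11408 genes. FPKM ranges lay apart and lower in G1 for 16 S phase and 10 G2/M genes, beside 7.63% of all genes. They lay apart and higher for 2 genes of each list, beside 16.3%. In unsorted old HSCs 17 of the S phase and 30 of the G2/M genes fell, beside 1.73% of all genes, with medians of −0.86 and −1.33. Without G1 mouse 3, 5 and 3 fell in G1, beside 0.965%. Top2a, the topoisomerase of dividing cells, was at 41.5, 30.9 and 32.2 FPKM in young HSCs, 30.5, 14.6 and 32.7 FPKM in G1 and 16.2, 4.64 and 8.75 FPKM in unsorted old HSCs. G1 mouse 2 was the low library here, and also in the proliferation marker Mki67, at 2.33 FPKM against 9.46 and 9.98 FPKM in the other mice. The median of the S phase genes was −0.35, −0.50 and −0.41 in the G1 libraries. These lay below each young library, at 0.111, −0.075 and 0.002, and above the unsorted old ones, between −1.03 and −0.71. In G2 this median was −0.395, −0.856 and −0.41, in G3 −0.484, −0.892 and −0.527 and in G4 −0.707, −1.079 and −0.912. The median of the G2/M genes was 0.17, −0.85 and −0.26 in the G1 libraries and between −1.81 and −0.93 in the unsorted old ones. It was −0.39, −0.60 and −0.58 in G2 and −0.38, −0.83 and −0.44 in G3, inside the G1 range and above every unsorted old library. G4, at −1.52, −1.16 and −0.63, overlapped both G1 and unsorted old HSCs. With the experiments set against each other the G2/M median was −0.99 and the S phase median −0.72.

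Immediate early and histone genes differed between the fractions and unsorted old HSCs. Immediate early genes, which cells switch on within minutes of a stimulus, had a median of −0.85, −0.83 and 1.76 in the young libraries, 0.55, 0.69 and −0.45 in G1 and −0.67, −0.59 and −0.61 in unsorted old HSCs. No gene of 25 was called by limma in G1 against young HSCs (3 at an unadjusted p under 0.05, beside 1780 of all 11408 genes). Without G1 mouse 3, 2 were higher, beside 4.93% of all genes. Without both that library and young replicate 3, 17 of 23 were higher, beside 5.11%. Young replicate 3 was singled out for its high immediate early genes after the data were seen, so this last count was partly built in. The mean of the fractions was higher than unsorted old HSCs in 15 of 24, beside 2.02% of all genes. Jun, a transcription factor of this class, was at 11.6, 14.4 and 103 FPKM in young HSCs, 160, 163 and 63.2 FPKM in G1 and 12.8, 40.7 and 24.0 FPKM in unsorted old HSCs. Of the 6 genes called higher in G1 than in unsorted old HSCs, Dusp1, Klf2 and Klf6 are immediate early genes, H4c4 and Hist1h4m encode histone H4 and Ccl3 encodes a chemokine. Histone genes coupled to DNA replication, a list written after the values were seen, had 0 of 59 called by limma in G1 against young HSCs. Of these, 11 had an unadjusted p under 0.05, beside the same 1780 of 11408 genes. In the fractions 31 of 55 histone genes were higher than in unsorted old HSCs, beside 2.02%. Without mouse 3 this count was 16 of 55, beside 1.22%. The part of the experiment in these values cannot be told apart from that of the cells.

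**Figure D4:**
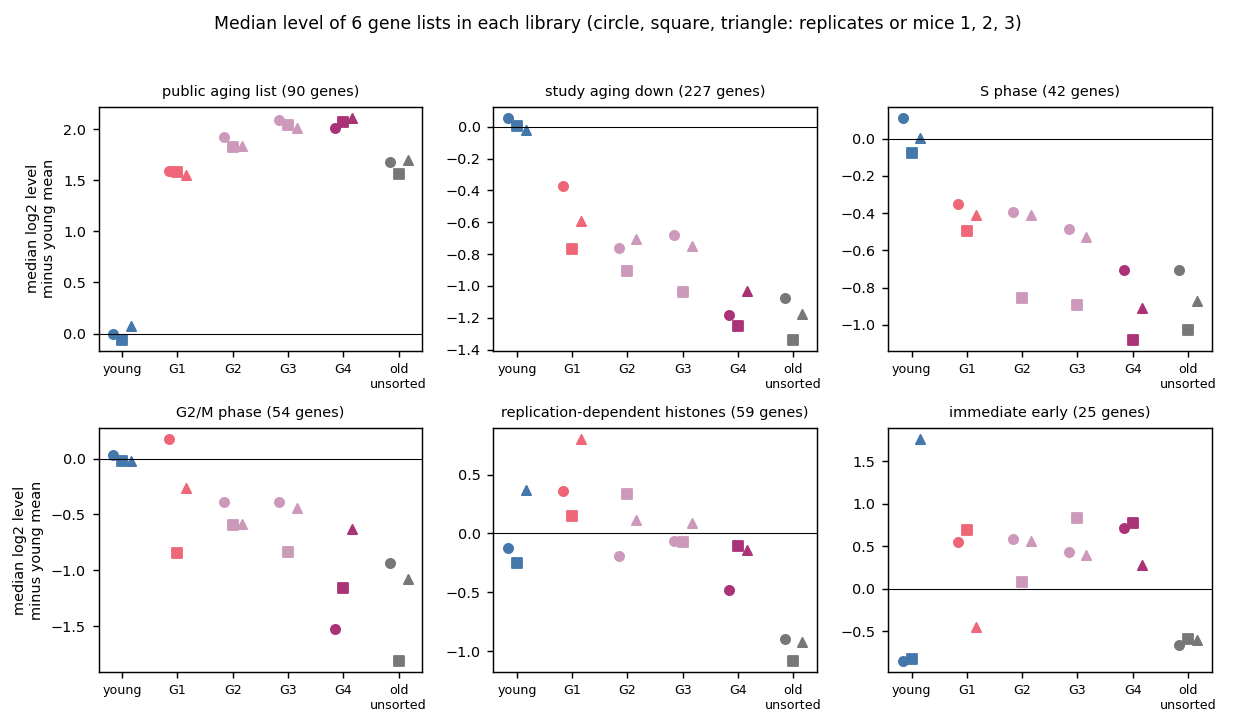
Median log2 difference from the young mean over the tested genes of 6 lists (1 panel each), with 1 point per library. The public aging list is near 1.6 in all G1 libraries, while the G2/M, immediate early and histone lists spread within G1. The S phase list lies between −0.50 and −0.35 in G1. The S phase, G2/M, immediate early and histone lists differ between G1 and unsorted old HSCs.

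HSC identity genes were not called in G1 with all libraries. Of 26 tested, limma called 0 and 7 had an unadjusted p under 0.05, beside 1780 of all 11408 genes, with a list median of 0.37. Without G1 mouse 3, Gata2 and Eng were higher (7.69%, beside 4.93% of all genes). Kit, the receptor of stem cell factor, was at 75.5, 49.9 and 49.7 FPKM in young HSCs against 67.7, 63.4 and 162.5 FPKM in G1. Ly6a, which encodes Sca-1, was at 537, 521 and 489 against 632, 636 and 1028 FPKM. G1 mouse 3 was the highest library in both. The same mouse had 40.3 FPKM of the transcription factor gene Gata2 against 118 and 95.1 FPKM. Cd34, absent by the sort on its protein, was at 77.6, 89.9 and 77.3 FPKM in young HSCs and at 63.6, 69.3 and 28.6 FPKM in G1.

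A few genes rose in G1 without a call in unsorted old HSCs. Wfdc17, a small secreted protein of myeloid cells, was at 13.8, 13.7 and 31.8 FPKM in young HSCs against 122, 117 and 178 FPKM in G1 (2.84 ± 0.34, adjusted p = 0.0103), and its means in G2, G3 and G4 were 47.5, 17.6 and 11.2 FPKM. It was the 1 gene called higher in G1 than in G4 (3.53 ± 0.29, limma with the mice as a block, adjusted p = 0.0475). Neutrophil markers summed to 21.3, 98.7 and 6.86 FPKM in the G1 mice, with mouse 2 high, and to 11.6 to 22.6 FPKM in young HSCs, while Wfdc17 was highest in mouse 3. The neutrophil gene Ly6g was at 0.00874 FPKM or less in both groups, and 2 of the 14 markers were at 0 in all G1 libraries. The median of the 2 neutrophil genes tested, as a log2 difference from the young mean, was 0.45, 2.55 and −1.02 in the G1 mice. The part of neutrophils in the rise of Wfdc17 was not tested. Chains of MHC class II, a list written after the values were seen, had 2 of 11 called higher, beside 0.508% of all genes, with a median of 0.67. The count was 4 of 11 with a median of 0.94 without G1 mouse 3, beside 4.93% of all genes. Without young replicate 3 it was 3, beside 0.21%. By library, the list median as a log2 difference from the young mean was 0.96, 0.87 and 0.46 in G1. It was 0.89, 0.47 and 0.77 in G2, 0.51, 0.93 and 0.40 in G3 and 0.75, 0.78 and 0.89 in G4. In unsorted old HSCs it was 0.63, 0.31 and 0.22. Between G4 and young HSCs 4 of 11 were called higher, beside 6.31%, so the rise was not particular to G1. H2-Ab1 was at 109, 91.1 and 145 FPKM in young HSCs against 324, 309 and 342 FPKM in G1 (1.51 ± 0.20, adjusted p = 0.0157), and H2-Eb1 rose from a mean of 43.0 to 158 FPKM (1.92 ± 0.27, adjusted p = 0.0193). Neither was called with the experiments set against each other. Hk1, the glycolytic enzyme hexokinase 1, named after its values were seen, had a mean of 51.9 FPKM in G1 and 19.1 FPKM in young HSCs (1.39, adjusted p = 0.0401), with 19.3 FPKM in unsorted old HSCs and 33.0 to 44.9 FPKM in G2 to G4.

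Of 23 megakaryocyte and platelet genes 4 rose (Selp, Plek, Cavin2 and Mmrn1) and F2rl2 fell, beside 0.508% and 0.0877% of all genes, with a median of 0.35. With G1 mouse 3 left out, 7 rose and 3 fell, beside 4.93% and 0.965% of all genes. Without young replicate 3, 2 rose and 1 fell, beside 0.21% and 0.0437%. Of 13 myeloid genes Prtn3 rose and Plac8 fell, beside 0.508% and 0.0877% of all genes. Without G1 mouse 3, 1 rose (7.69%) and 3 fell (23.1%), beside 4.93% and 0.965%. Limma called none among 37 interferon-stimulated genes (median 0.24), 20 chaperones (−0.09), 14 circadian clock genes (0.40) and 11 erythroid genes (−0.43). In these lists 10, 4, 3 and 1 had an unadjusted p under 0.05, beside 1780 of all 11408 genes. Markers of cells that the sort should remove were then examined. The T cell gene Cd3e was at 0 in all libraries, Cdh5 of endothelium was at 0.0836 FPKM or less in both groups, and endothelial markers summed to 50.4 to 72.6 FPKM in young HSCs against 56.5 to 72.9 in G1. B cell markers summed to 59.3 to 71.1 FPKM in young HSCs against 45.3 to 55.2 in G1, most of it Cd79b, and T cell markers to 48.0 to 58.9 and 43.5 to 68.9 FPKM.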

How the data were processed

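The values are FPKM per gene, 1 table of 21835 entries per library as deposited by the authors, who, per the labels and their methods, used Trim Galore on full-length cDNA reads, HISAT2 2.0.0 for alignment to mm10 and HTSeq 0.12.4 for counting without strand, so that overlapping and antisense genes are uncertain. The labels also name SAMtools 1.14, Cufflinks and DESeq2 1.22.2, and the tool behind the FPKM is not given in the sources used here. Read totals are unknown, so no depth or counting interval can be given.

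Here the 10 entries that repeat a symbol were summed, values entered as log2(FPKM + 1) without rescaling, and genes whose mean reached 1 FPKM in either group were tested with limma-trend (limma 3.58.1, R 4.3.3), with Benjamini-Hochberg adjustment over all genes tested, two-sided. Calls needed an adjusted p under 0.05 and a fold above 2 or below 0.5. The fit was tested on simulated data. Gene symbols of the lists were matched to the tables, 27 of them through older or newer symbols, and sequences and coordinates are from RefSeq, GRCm38.p6. The members and lists were chosen with earlier results of these data known. Genes named were those the study names for HSC aging, the 10 largest rises and 10 largest falls among calls without overlap, up to 4 called members of each list, all HSC identity and sort genes above 1 FPKM, and the 5 smallest and 5 largest differences of the public list. The MHC class II and histone lists were written after values were seen, and the comparisons of G1 with G4, of the fractions with unsorted old HSCs and of G4 with young HSCs were added then. Alternatives were another pseudocount, filters, scaling, no trend, a fit of 18 libraries, a replicate block and leaving out each library. The contrast within experiments, library weights and leaving out both libraries that stood apart were further alternatives, the last 2 chosen after seeing the data. Transplanted and single-cell libraries were not used here. Some genes are not reported here.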

Additional observations from a re-analysis of the deposited data

How the results depend on the processing

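The number of calls changed with the library of G1 mouse 3, to which library weights gave 0.116 against 0.954 to 3.37 for the other G1 and young libraries, and with the genes tested. In the order higher and lower in G1 than in young HSCs, higher and lower in G1 than in unsorted old HSCs, the counts with all libraries were 58, 10, 6 and 1. They were 382, 63, 123 and 21 in the fit of 18 libraries, 632, 161, 335 and 72 with library weights, and 6, 2, 0 and 0 without a filter on low values. Leaving out both libraries that stood apart gave 584 higher and 118 lower than young HSCs, and no mean-variance trend gave 1 higher and 0 lower than unsorted old HSCs. Unsorted old against young HSCs gave 217 higher and 195 lower genes, and 50 and 11 without a filter. Public list members present, partial and not detected were 32, 0 and 44 with all libraries, 63, 4 and 15 in the fit of 18 libraries, 72, 12 and 11 with weights, 62 present and 18 not detected without both libraries, 1 and 29 without a filter, and 25 not detected with a filter at 5 FPKM. Leaving out 1 library at a time gave 10 to 562 higher and 1 to 110 lower than young HSCs, 0 to 230 and 0 to 38 against unsorted old HSCs, 154 to 212 and 113 to 218 for unsorted old against young HSCs, and 8 to 71 present, 0 to 10 partial and 10 to 63 not detected. Of these fits, the one without G1 mouse 3 gave the highest counts of genes called in G1 and of list members present and partial, and the fewest not detected. The cause of the other moves was not tested. A pseudocount of 0.1 and median-of-ratios scaling kept the counts against young HSCs within 1.5 times. The contrast within experiments, fitted on all 18 libraries, gave 59 and 14, against 382 and 63 for G1 against young HSCs in that fit.

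The replicate block gave 30 higher and 6 lower genes than in young HSCs, 0 and 0 against unsorted old HSCs, and 18 public list members present. The young and G1 numbers did not pair: deviations of same-numbered libraries correlated at −0.12, 0.08 and −0.07, and only number 2 correlated best with its own number.

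Over 82 named genes and 1303 pairs of a gene and an alternative, 1059 kept direction and side of the threshold, 175 lost a call, 40 gained one and 29 changed sign. No gene that changed sign was called. Within experiments the differences of Ctnnal1 (−0.31), Prdm16 (−0.44), Serpinb1a (−0.28), Tcf15 (0.26) and Tek (−0.31) turned. Scaling turned Meis1 (−0.0454) and Slamf1 (−0.0246), weights turned Flt3 (0.12) and Tcf15 (0.0787), and leaving out both libraries turned Ctnnal1 (−0.0895), Hoxa9 (0.13) and Kif15 (0.19). Leaving out 1 library at a time gave −0.0562 to 0.57 for Ctnnal1, −0.0458 to 0.93 for Esam, −0.36 to 0.0685 for Fgd5, −0.54 to 0.014 for Hoxa9, −0.23 to 0.13 for Kif15, −0.12 to 0.36 for Meis1, −0.60 to 0.27 for Nkg7, −0.0908 to 0.47 for Prdm16, −0.11 to 0.36 for Slamf1 and −0.13 to 0.19 for Tcf15.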
